A study of Mus musculus with 7 samples.

Results

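In mouse macrophages that had already been exposed to muramyl dipeptide, the choice of the next ligand separated the expression of 698 genes by at least 2-fold (3.84% of all genes). The comparison set 1 culture given muramyl dipeptide again against 1 culture given the lipopeptide Pam3CSK4, which are 2 of the 7 arrays of the study, and covered all 18193 genes with a probe set of their own. Both cultures came from bone marrow derived macrophages kept for 24 h with muramyl dipeptide (MDP) at 10 mg/ml, as the labels write the dose. The labels' unit may stand for micrograms, which could not be settled here. For the last 3 h, 1 culture received MDP at 10 mg/ml (MDP then MDP) and the other Pam3CSK4 at 1 mg/ml (MDP then Pam3CSK4). The other 5 arrays were macrophages without pretreatment (naive) left unstimulated, given MDP or given Pam3CSK4 for 3 h, and macrophages kept with Pam3CSK4 at 1 mg/ml for 24 h and then given MDP or Pam3CSK4. Every label carries replicate number 2, each group has 1 array, and replicates under another number were not used here. The ligands were each used at a single dose and the doses differ, no culture was kept with MDP for 24 h and then left without a second ligand, and the strain, sex and age of the mice are not given in the sources used here.

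MDP is the smallest stimulatory fragment of bacterial peptidoglycan and is sensed inside the cell by NOD2, which signals through the kinase RIPK2. Pam3CSK4 is a synthetic lipopeptide recognised outside the cell by Toll-like receptor 2 paired with Toll-like receptor 1, and it signals through MyD88. Both routes lead to NF-kB and MAP kinases, and macrophages kept with such a ligand often respond less to a renewed exposure, a state called tolerance. The comparison asks how macrophages pretreated with MDP differ when the later ligand enters by the same or by the other route. The genes of Nod2 and Ripk2 are not analysed here.

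Levels are deposited log2 expression values, and a difference is the level in MDP then MDP minus the level in MDP then Pam3CSK4, so a negative difference means more signal with Pam3CSK4. With 1 array on each side the spread between cultures is unknown, and no difference below has a replicate check or a p-value. The precision is limited by this number of arrays. A difference was counted when it reached 2-fold, or 1 on the log2 scale. Where the lower value lay under the median of its array (5.48 with MDP, 5.50 with Pam3CSK4) the difference was taken from that median and is written as at least so many fold. In RNA from whole cultures, fewer cells of a type and less RNA per cell cannot be told apart.

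Pam3CSK4 gave the wider side of the contrast. At least 2-fold higher with Pam3CSK4 were 439 genes (2.41% of all genes), and 259 genes (1.42%) were at least 2-fold higher with MDP. The imbalance grew with the threshold, with 237 genes against 70 at 3-fold (1.3% and 0.385%), 152 against 28 at 4-fold, 47 against 7 at 8-fold and 14 against 0 at 16-fold. At 1.5-fold the sides were close, at 815 and 801 genes. The median fold was 3.13 over the 439 genes and 2.46 over the 259 genes. Over all genes the median difference was 0.0036 and the differences ran from -6.48 to 3.26. The genes just inside the threshold were the interferon-induced GTPase gene Mx2, Gm9706 and Ciita on the Pam3CSK4 side and Atad5, Sesn3 and Chn2 on the MDP side. Just outside it were Lpcat1, Cst7 and Siah2 (-0.9998, -0.996 and -0.995) on the one side and Zfp709, Fbxo31 and Dgkz (0.9997, 0.998 and 0.998) on the other.

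**Figure D1:**
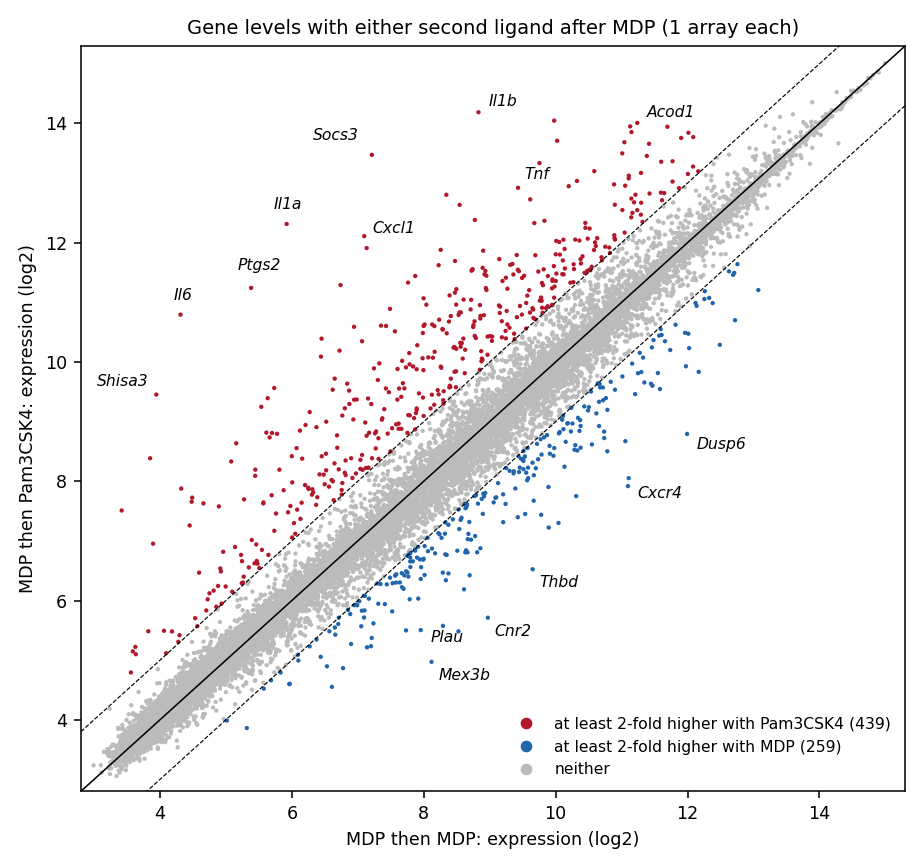
Each point is 1 of 18193 genes, with its log2 expression in MDP then MDP on the horizontal axis and in MDP then Pam3CSK4 on the vertical axis. The solid line marks equal levels and the dashed lines a difference of 2-fold. The 439 red genes spread further from the line, to -6.48, than the 259 blue genes, which reach 3.26.

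The levels of both sets on the other arrays were as follows. The median level of the 439 genes was 7.92 unstimulated, 8.63 and 9.98 in naive cells given MDP and Pam3CSK4, 8.23 in MDP then MDP, 10.28 in MDP then Pam3CSK4, and 9.44 and 9.29 after Pam3CSK4 given MDP and Pam3CSK4. The levels on the 2 compared arrays follow from how the genes were chosen, and the other 5 did not enter the choice. The median level of the 259 genes was 9.13 unstimulated, 8.41 and 7.59 in naive cells given MDP and Pam3CSK4, 9.06 in MDP then MDP, 7.62 in MDP then Pam3CSK4, and 8.07 and 8.22 after Pam3CSK4. Here too the 2 compared arrays fixed the choice of genes.

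Promoter sequences are shown for 2 genes from the far end of each side of the contrast, Il6 and Il1a with Pam3CSK4 and Dusp6 and Cxcr4 with MDP, as the 250 bases before the start site. The sequences are from RefSeq on build GRCm38.p6 and run 5′ to 3′ on the strand of the gene. Capitals mark matches, on either strand, to an NF-kB motif (GGG and TTTCC with 2 free bases between), the AP-1 motif TGANTCA, the TATA motif TATAAA and the other motifs named below except the C/EBP motif. Il6 lies at chr5:30012864-30013113 on the plus strand, Il1a at chr2:129309973-129310222 on the minus strand, Dusp6 at chr10:99262981-99263230 on the plus strand and Cxcr4 at chr1:128592300-128592549 on the minus strand.
Il6: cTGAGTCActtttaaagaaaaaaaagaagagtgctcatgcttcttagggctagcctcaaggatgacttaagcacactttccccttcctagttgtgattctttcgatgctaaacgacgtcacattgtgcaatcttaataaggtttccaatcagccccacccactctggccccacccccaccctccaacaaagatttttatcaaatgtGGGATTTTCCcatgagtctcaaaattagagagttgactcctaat
Il1a: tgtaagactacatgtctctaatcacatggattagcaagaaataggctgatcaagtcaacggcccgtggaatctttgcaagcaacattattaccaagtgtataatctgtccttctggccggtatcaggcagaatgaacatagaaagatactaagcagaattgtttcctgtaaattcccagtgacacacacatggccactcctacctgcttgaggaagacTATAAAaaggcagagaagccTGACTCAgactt
Dusp6: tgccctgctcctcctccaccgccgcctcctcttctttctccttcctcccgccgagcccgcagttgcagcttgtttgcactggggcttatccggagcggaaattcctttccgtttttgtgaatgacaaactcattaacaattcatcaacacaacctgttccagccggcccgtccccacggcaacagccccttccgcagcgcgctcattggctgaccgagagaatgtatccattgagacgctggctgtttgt
Cxcr4: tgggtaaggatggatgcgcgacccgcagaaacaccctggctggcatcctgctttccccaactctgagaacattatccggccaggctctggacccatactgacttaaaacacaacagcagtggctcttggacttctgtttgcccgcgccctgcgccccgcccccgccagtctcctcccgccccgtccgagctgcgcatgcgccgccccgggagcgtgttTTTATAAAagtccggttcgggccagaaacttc
The Il6 stretch holds the NF-kB match GGGATTTTCC and an AP-1 match. The Il1a stretch holds a TATA match and an AP-1 match close to the start site, the Cxcr4 stretch a TATA match, and the Dusp6 stretch no match in capitals. Other genes from the far ends were searched and are not shown. Those were Socs3 and Ptgs2 with Pam3CSK4, and Cnr2, the furthest on its side, and Mex3b with MDP. Their stretches held no match to the motifs marked in capitals, so the stretches shown do not stand for the far ends.

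Promoter windows of 300 bases, reaching 50 bases past the start site, were found in RefSeq for 14452 of the 18193 genes, 353 of the 439 and 207 of the 259. The NF-kB motif stood in 17 (4.82%) of the windows on the Pam3CSK4 side, 2 (0.966%) of those on the MDP side and 1.56% of all windows. A narrower form with A as the first of the free bases, whose matches are among the former, stood in 1.70% and 0% against 0.436% of all windows. The interferon response motif, 2 copies of GAAA with 2 free bases between, stood in 5.38% of the windows on the Pam3CSK4 side, 1.93% of those on the MDP side and 3.02% of all. For AP-1 the shares were 8.50%, 5.80% and 6.33%, and for the C/EBP motif TTGNNNAA 33.7%, 23.2% and 30.6%. The TATA motif (11.0%, 9.66% and 9.87%), the E-box CACGTG (10.8%, 8.70% and 9.02%) and the cAMP response motif TGACGTCA (1.98%, 1.93% and 2.68%) lay closer together. The serum response motif stood in none of the windows on either side and 0.0277% of all. The median GC content of the windows was 60.0%, 62.7% and 58.7%. A match is a description of these letters, and binding was not measured.

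Among the cytokine genes, 13 of 19 measured were at least 2-fold higher with Pam3CSK4, against 2.41% of all genes, and none with MDP, against 1.42%. In lists of this size, a single member or none at 2-fold is near these shares. All 19 lay on the Pam3CSK4 side, as did 44.7% of all genes, with a median difference of -1.43, and 17 were above the array median on at least 1 of the 2 arrays. Il6, which encodes interleukin-6, stood at 3.41 unstimulated, 4.01 and 9.84 in naive cells given MDP and Pam3CSK4, 4.31 in MDP then MDP, 10.79 in MDP then Pam3CSK4, and 10.18 and 9.12 after Pam3CSK4 given MDP and Pam3CSK4. It was thus low on the 3 arrays without Pam3CSK4 and high on the 4 with it, and at least 39.7-fold higher with Pam3CSK4 in the contrast. Il1a, for interleukin-1 alpha, stood at 4.79, 7.38, 12.04, 5.92, 12.31, 10.41 and 10.09 in the same order, a difference of 84.1-fold. Il1b, for interleukin-1 beta, stood at 6.67, 9.73, 14.17, 8.83, 14.19, 12.45 and 12.11, a difference of 41.0-fold. Both interleukin-1 genes were above the unstimulated level in MDP then MDP but below their level in naive cells given MDP. Tnf, the tumour necrosis factor gene, stood at 9.32, 10.23, 12.89, 9.43, 12.92, 11.54 and 11.28, a difference of 11.2-fold. In MDP then MDP it was near the unstimulated level. Il10, which encodes an anti-inflammatory cytokine, was 7.73-fold higher with Pam3CSK4 and stood at 7.40 unstimulated, 7.56 in MDP then MDP and 10.51 in MDP then Pam3CSK4. Il12b, a subunit of interleukin-12 and interleukin-23, was at least 2.77-fold higher, with 3.89 and 6.95 on the 2 arrays.

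Chemokine genes were at least 2-fold higher with Pam3CSK4 in 13 of 23 cases, against 2.41% of all genes. They lay on that side in 21, as did 44.7% of all genes, and Cxcl14 was at least 2-fold higher with MDP. The list median was -1.19, or -0.72 with 32 added to the linear values, and in naive cells the same list had a median of -0.39. Cxcl1, a neutrophil chemoattractant, stood at 7.20 unstimulated, 7.57 and 11.50 in naive cells given MDP and Pam3CSK4, 7.10 in MDP then MDP, 12.11 in MDP then Pam3CSK4, and 9.81 and 9.49 after Pam3CSK4. Its difference of 32.3-fold was the widest of the list, and was -5.91 on the log2 scale without the less specific probe sets. The related Cxcl2 and Cxcl3 were 12.9-fold and 12.2-fold higher with Pam3CSK4. Ccl22, which attracts T cells, was 6.66-fold higher and Ccl5, another T cell chemoattractant, 4.74-fold. Ccl5 stood at 7.99 unstimulated, 11.42 in MDP then MDP and 13.66 in MDP then Pam3CSK4, so it was far above the unstimulated level in both cultures. Cxcl14, a chemokine made without stimulation by many tissues, stood at 8.42 unstimulated, 8.37 with MDP and 6.45 with Pam3CSK4, a difference of 3.78-fold.

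Regulators of NF-kB were the list with the most negative median, at -2.01, with values from -1.62 to -1.84 averaged over probe sets, without the less specific probe sets and with 32 added. At least 2-fold higher with Pam3CSK4 were 13 of 21, against 2.41% of all genes, and Inpp5d was at least 2-fold higher with MDP. Socs3, a feedback inhibitor of cytokine signalling, stood at 6.63 unstimulated, 9.45 and 13.43 in naive cells given MDP and Pam3CSK4, 7.21 in MDP then MDP, 13.47 in MDP then Pam3CSK4, and 11.40 and 11.19 after Pam3CSK4. It differed by 76.7-fold, close to the unstimulated level with MDP and at its naive level with Pam3CSK4. Nfkbiz, an atypical inhibitor protein that is needed for Il6 transcription, was 17.1-fold higher, with 8.54 and 12.64 on the 2 arrays. Nfkbie and Bcl3, further members of the inhibitor family, were 6.29-fold and 6.03-fold higher. Tnfaip3, which encodes the deubiquitinating enzyme A20, was 4.26-fold higher and Irak3, which dampens signals from Toll-like receptors, 3.46-fold. Nfkbia, the classical inhibitor, stood at 13.36 unstimulated, 13.40 with MDP and 14.11 with Pam3CSK4. Its difference of -0.71 was under the threshold and -1.56 averaged over its probe sets. Inpp5d, a phosphatase that restrains phosphoinositide signalling, was 2.90-fold higher with MDP.

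Toll-like receptor genes, genes of the NOD route and adaptor genes were partly on the Pam3CSK4 side. Of 14 Toll-like receptor genes and accessory proteins, 3 were at least 2-fold higher with Pam3CSK4 and 2 with MDP, and the median was -0.16. Over all genes these shares were 2.41% and 1.42%. Tlr2 stood at 11.20 unstimulated, 13.30 and 13.78 in naive cells given MDP and Pam3CSK4, 12.01 in MDP then MDP, 13.85 in MDP then Pam3CSK4, and 12.88 on both arrays after Pam3CSK4. It was 3.56-fold higher with Pam3CSK4. Its partners Tlr1 and Tlr6 were 2.95-fold and 2.08-fold higher, Tlr6 standing at -0.96 with 32 added. Tlr4, the lipopolysaccharide receptor, stood at 10.96 unstimulated, 10.78 with MDP and 9.20 with Pam3CSK4, 3.00-fold higher with MDP. Tlr13, a receptor for bacterial ribosomal RNA, was 2.48-fold higher with MDP. Of 14 genes of the NOD and muramyl peptide route 3 were at least 2-fold higher with Pam3CSK4, against 2.41% of all genes, and none with MDP. They were the inflammasome sensor Nlrp3 (3.82-fold), Birc3, which ubiquitinates RIPK proteins (3.48-fold), and Nod1 (2.67-fold). Birc3 was at -0.99 averaged over its probe sets and at -0.18 without the less specific ones. Of 18 adaptor and kinase genes 4 were at least 2-fold higher with Pam3CSK4, the signalling adaptor Traf1 most (23.5-fold, or -3.88 on the log2 scale averaged over its probe sets). Map3k8, the kinase TPL2, was 3.89-fold higher, Traf2 3.45-fold and Ikbke 2.46-fold.

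Surface genes of activated macrophages stood with them. Of 19 costimulation and activation genes 10 were at least 2-fold higher with Pam3CSK4, against 2.41% of all genes, and none with MDP. The median was -1.03. Cd40, a receptor for T cell help, stood at 7.45 unstimulated, 10.17 and 12.71 in naive cells given MDP and Pam3CSK4, 8.34 in MDP then MDP, 12.80 in MDP then Pam3CSK4, and 10.38 and 10.08 after Pam3CSK4. It differed by 22.0-fold. Cd69, an early activation marker, was 11.9-fold higher and Cd83, a maturation marker, 6.56-fold. Icosl, a ligand for T cell costimulation, was 10.6-fold higher, or -1.68 on the log2 scale averaged over its probe sets. In contrast, 1 of 9 MHC class II genes passed the threshold, namely their activator Ciita at -1.003, which was below the array median with MDP and short of 2-fold under 5 of the 6 alternatives run for single genes.

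Receptors for lipids, chemokines and bacterial ligands divided by member. Of 26 chemokine and G protein receptor genes 5 were at least 2-fold higher with Pam3CSK4 and 7 with MDP, with a median of 0.11. Over all genes these shares were 2.41% and 1.42%. Gpr84, a receptor for medium-chain fatty acids, was 11.96-fold higher with Pam3CSK4, the atypical chemokine receptor Ccrl2 8.40-fold, Gpr132 6.29-fold and the lysophosphatidic acid receptor Lpar1 4.24-fold. Among 17 genes of the scavenger and C-type lectin receptor list 4 were at least 2-fold higher with Pam3CSK4 and none with MDP. The oxidized lipoprotein receptor Olr1 was 12.5-fold higher, the lectin Clec4e 7.06-fold and the scavenger receptor Marco 3.50-fold. The list also holds the formyl peptide receptor Fpr2, a G protein receptor, which was 6.09-fold higher. Hcar2, the receptor for nicotinic acid and ketone bodies, stood at 6.45 with MDP and 10.39 with Pam3CSK4, a difference of 15.4-fold.

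Secreted effectors and mediator enzymes gave some of the widest differences. Of 26 acute phase, antimicrobial and matrix genes 13 were at least 2-fold higher with Pam3CSK4 and 3 with MDP, and the median was -1.001. Over all genes these shares were 2.41% and 1.42%. Saa3, an acute phase protein, stood at 6.78 unstimulated, 9.40 and 13.80 in naive cells given MDP and Pam3CSK4, 9.98 in MDP then MDP, 14.05 in MDP then Pam3CSK4, and 14.63 and 14.79 after Pam3CSK4. It was 16.8-fold higher with Pam3CSK4, and was above its unstimulated level in both cultures. Acod1, the enzyme that makes itaconate, stood at 7.85, 12.85, 13.78, 11.24, 14.01, 14.02 and 13.99 in the same order and was 6.83-fold higher. Mmp14, a protease anchored in the plasma membrane, was 12.3-fold higher, the siderophore-binding Lcn2 6.13-fold and Nos2, the inducible nitric oxide synthase, 4.20-fold. The collagen crosslinking enzyme Lox was 6.62-fold higher, or -1.39 on the log2 scale averaged over its probe sets. Among 14 prostaglandin and leukotriene genes 4 were at least 2-fold higher with Pam3CSK4, yet the median was 0.11. Ptgs2, the inducible cyclooxygenase, stood at 4.50, 4.94, 10.78, 5.38, 11.24, 9.19 and 8.59 and was at least 54.1-fold higher. Ptges, which completes prostaglandin E2 synthesis, was 13.1-fold higher (-3.03 on the log2 scale with 32 added), its receptor Ptger4 3.33-fold and the phospholipase Pla2g4a 2.03-fold, the last at -0.97 with 32 added.

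Some of the widest genes belonged to no list. Shisa3, a membrane adaptor gene, stood at 4.03, 4.09, 9.15, 3.94, 9.45, 4.81 and 4.46 on the 7 arrays and was at least 15.7-fold higher with Pam3CSK4. It was high on the arrays where Pam3CSK4 met cells without earlier Pam3CSK4, and below the array medians on the other 5. Cdc42ep2, an effector of the GTPase Cdc42, was 27.4-fold higher, and Itgb8, an integrin subunit that activates TGF-beta, at least 7.47-fold. Mir155hg, the host transcript of the microRNA miR-155, stood at 3.59, 3.82, 7.45, 3.42, 7.51, 5.63 and 4.73 and was at least 4.07-fold higher. With 32 added to the linear values Shisa3 was at -3.95, Itgb8 at -2.98 and Mir155hg at -2.33.

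The microRNA miR-155 is a regulator of macrophage activation that is cut from the Mir155hg transcript. The array measured the host transcript and not the mature forms, which are shown because that transcript carries them, from RefSeq on build GRCm38.p6 with the seed (bases 2 to 8) in capitals. They lie on the plus strand at chr16:84714143-84714165 and chr16:84714182-84714202.
mmu-miR-155-5p: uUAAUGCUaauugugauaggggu
mmu-miR-155-3p: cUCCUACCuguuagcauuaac
The seeds differ, so the arms belong to separate seed groups.

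**Figure D2:**
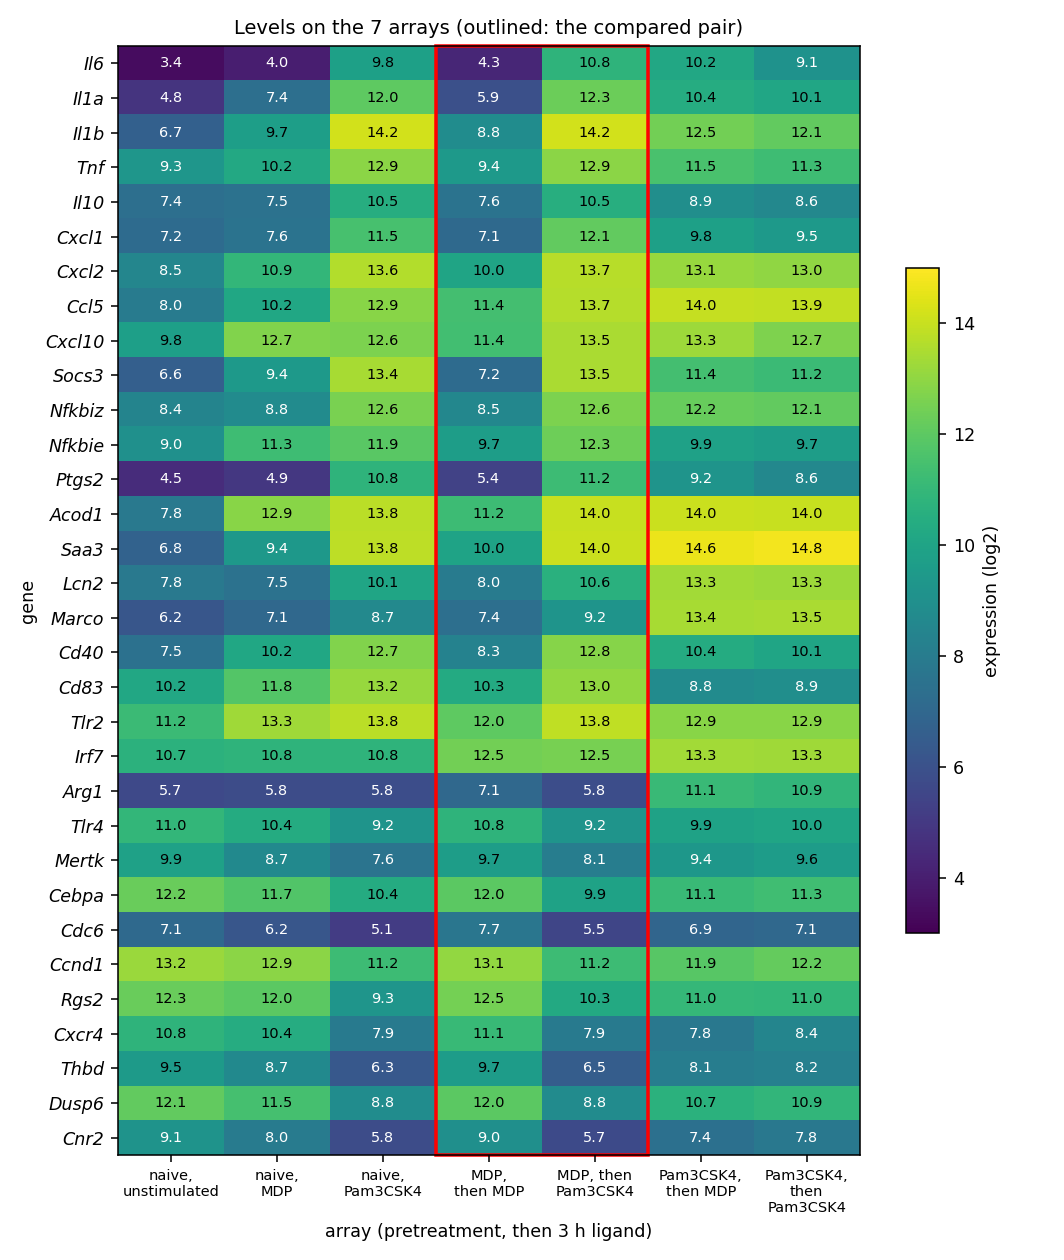
Log2 expression of 32 named genes (rows) on the 7 arrays (columns, pretreatment and then the 3 h ligand), with the value printed in each cell and the compared pair outlined in red. Il6 went from 4.3 to 10.8 within the pair, while Irf7 stood at 12.5 on both arrays and Dusp6 was at 11.99 with MDP and 8.79 with Pam3CSK4.

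Transcription factors and RNA decay factors were split. Of 23 immediate early factors 5 were at least 2-fold higher with Pam3CSK4, against 2.41% of all genes, and none with MDP, against 1.42%. The median was -0.20. The 5 genes were the stress response gene Ier3 (3.92-fold), the AP-1 subunit Junb (3.89-fold), Maff (2.92-fold), Btg2 (2.76-fold) and Egr2 (2.54-fold). Of 18 macrophage transcription factors 4 were at least 2-fold higher with each ligand. On the Pam3CSK4 side were Hivep3 (7.01-fold, but -0.79 on the log2 scale averaged over its 5 probe sets), Cebpd (4.06-fold, or -1.29), Nfil3 (2.72-fold) and Irf4 (at least 2.74-fold, or -0.77). On the MDP side were Cebpa (4.14-fold), which drives myeloid differentiation, the homeobox gene Hhex (4.03-fold), Mef2c (3.71-fold) and Id1 (3.46-fold). Thus Cebpa stood at 12.24 unstimulated, 11.98 with MDP and 9.93 with Pam3CSK4, while its relative Cebpd stood at 10.52, 10.01 and 12.03.

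RNA decay factors showed the same division. Of 13 of them, Zc3h12c (11.1-fold), Zc3h12a, which cuts cytokine messengers (7.57-fold), and Zfp36, which destabilizes Tnf messenger (3.74-fold), were at least 2-fold higher with Pam3CSK4. That side held 2.41% of all genes and the MDP side 1.42%. Mex3b, an RNA-binding protein gene, stood at 8.10 unstimulated, 6.89 and 4.73 in naive cells given MDP and Pam3CSK4, 8.12 in MDP then MDP, 4.97 in MDP then Pam3CSK4, and 6.40 and 6.50 after Pam3CSK4. It was at least 6.16-fold higher with MDP. Zfp36l2, a relative of Zfp36, was 2.90-fold higher with MDP, or 0.86 on the log2 scale averaged over its probe sets.

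Phosphatases that switch off MAP kinases took opposite sides. Of 16 phosphatase and ERK feedback genes 4 were at least 2-fold higher with Pam3CSK4 and 3 with MDP, with a median of -0.09. Over all genes these shares were 2.41% and 1.42%. Dusp6, an ERK phosphatase, stood at 12.10 unstimulated, 11.47 and 8.82 in naive cells given MDP and Pam3CSK4, 11.99 in MDP then MDP, 8.79 in MDP then Pam3CSK4, and 10.66 and 10.89 after Pam3CSK4. It was 9.19-fold higher with MDP, where it was at its unstimulated level. Dusp2, a nuclear phosphatase, stood at 6.90, 7.43, 10.19, 7.06, 10.35, 7.31 and 6.88 and was 9.74-fold higher with Pam3CSK4. Dusp16 (3.41-fold) and Dusp1 (2.06-fold) stood on the same side as Dusp2, but Dusp16 was at -0.04 without the less specific probe sets. The Dusp16 probe set behind that value was under the median on both arrays, at 3.88 with MDP and 3.91 with Pam3CSK4. Dusp14 was 2.35-fold higher with Pam3CSK4, or -0.98 on the log2 scale with 32 added. Spry2 (3.08-fold) and Spred2 (2.10-fold), inhibitors of the ERK route, stood with Dusp6, and were at 0.81 and 0.49 averaged over their probe sets.

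The genes furthest on the MDP side were at their unstimulated level with MDP and low with Pam3CSK4. Cnr2, the cannabinoid receptor of immune cells, stood at 9.15 unstimulated, 8.01 and 5.79 in naive cells given MDP and Pam3CSK4, 8.97 in MDP then MDP, 5.71 in MDP then Pam3CSK4, and 7.43 and 7.82 after Pam3CSK4. It was 9.58-fold higher with MDP. Cxcr4, the receptor that retains cells in the bone marrow, stood at 10.81, 10.45, 7.89, 11.10, 7.92, 7.80 and 8.45 and was 9.05-fold higher. Thbd, the anticoagulant receptor thrombomodulin, stood at 9.52, 8.72, 6.32, 9.65, 6.52, 8.07 and 8.22 and was 8.74-fold higher. Each of the 3 genes was thus lower with MDP than unstimulated in naive cells, by between -0.36 and -1.14 on the log2 scale, and in MDP then MDP differed from the unstimulated level by -0.18 to 0.28. Gpr183, an oxysterol receptor that guides migration, was 6.37-fold higher with MDP, or 2.03 on the log2 scale averaged over its probe sets. Plau, the urokinase plasminogen activator, was 5.46-fold higher, and Rgs2, a regulator of G protein signalling, 4.60-fold. The glycosyltransferase Gcnt1 was 8.32-fold higher, the arrestin-like Arrdc3 6.69-fold, the ubiquitin ligase adaptor Klhl6 5.90-fold, the fatty acid binding protein Fabp7 5.36-fold, the lysophosphatidic acid receptor Lpar6 5.23-fold and the pyroptosis effector Gsdme 5.07-fold (1.37 averaged over its probe sets). Hmga2-ps1, a pseudogene, was 6.57-fold higher and C130050O18Rik at least 8.18-fold. With 32 added to the linear values the log2 difference was 2.66 for Cnr2, 1.85 for Plau, 2.12 for Hmga2-ps1 and 2.39 for C130050O18Rik. A pseudogene can share signal with its parent gene, which was not tested here.

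Of 15 apoptotic cell receptors 2 were at least 2-fold higher with MDP, against 1.42% of all genes, none with Pam3CSK4 and 13 with neither, and the median was 0.04. The 2 were Cd300lb (4.06-fold) and the kinase Mertk (2.97-fold), which stood at 9.89 unstimulated, 9.67 with MDP and 8.10 with Pam3CSK4. All 18 measured genes of DNA replication and S phase lay on the MDP side, as did 50.5% of all genes, with a median of 0.72 (0.60 averaged over probe sets), and 4 were at least 2-fold higher. They were Cdc6, which loads the replicative helicase (4.70-fold), the cyclin gene Ccne2 (3.40-fold), the licensing factor Cdt1 (2.63-fold) and the ribonucleotide reductase subunit Rrm2 (2.37-fold). Averaged over their probe sets, Cdt1 (0.90) and Rrm2 (0.96) were short of it. The Cdt1 average includes a probe set under the median on both arrays, and its others were at 1.39 and 1.27. Cdc6 stood at 7.12 unstimulated, 6.23 and 5.13 in naive cells given MDP and Pam3CSK4, 7.73 in MDP then MDP, 5.50 in MDP then Pam3CSK4, and 6.91 and 7.06 after Pam3CSK4. Over unstimulated cells the S phase list had a median of 0.44 in MDP then MDP and -0.30 in MDP then Pam3CSK4. Mitosis genes had a median difference of 0.29, with 17 of 19 on the MDP side and none at 2-fold. Ccnd1, the D cyclin of the growth factor response, was 3.65-fold higher with MDP, the only 1 of 13 D cyclin and CDK inhibitor genes at 2-fold.

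Survival genes were divided, with 4 of 15 at least 2-fold higher with Pam3CSK4 and 3 with MDP, against 2.41% and 1.42% of all genes. The death receptor Fas was 7.55-fold higher with Pam3CSK4, the stress gene Gadd45b 6.73-fold, Cflar, an inhibitor of death receptor signalling, 3.69-fold and the inflammatory caspase Casp4 2.90-fold. The relatives Gadd45g (2.73-fold) and Gadd45a (2.26-fold) were higher with MDP, as was Bcl2 (2.20-fold, but 0.47 averaged over its probe sets). The 3 Gadd45 genes therefore did not stand on 1 side.

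All 29 measured interferon-stimulated genes lay on the Pam3CSK4 side, as did 44.7% of all genes, with a median difference of -0.52. At least 2-fold higher were 5, against 2.41% of all genes. The count was 4 with the arrays centred on their medians and 6 by cyclic loess. Against unstimulated cells, which are on another array, the list had a median of 1.11 in MDP then MDP and 1.74 in MDP then Pam3CSK4. The transcription factor Irf1 was 3.39-fold higher with Pam3CSK4, Ifit1, which binds foreign RNA, 2.38-fold, Parp14 2.18-fold (-0.96 averaged over its probe sets) and Mx1 2.07-fold. Ifit1 stood at 10.70 unstimulated, 12.50 and 12.20 in naive cells given MDP and Pam3CSK4, 11.77 in MDP then MDP, 13.03 in MDP then Pam3CSK4, and 13.63 and 13.36 after Pam3CSK4. Irf7, the factor that amplifies the interferon response, differed by -0.08, at 10.73 unstimulated, 12.46 with MDP and 12.54 with Pam3CSK4. All 9 guanylate binding proteins and immunity related GTPases also lay on the Pam3CSK4 side, against 44.7% of all genes, with a median of -0.89. Of these Gbp6 (3.50-fold), Gbp3 (2.58-fold) and Gbp2 (2.37-fold), which attack the vacuoles of pathogens, were at least 2-fold higher. By cyclic loess 4 members of this list reached 2-fold.

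Metabolic and stress lists differed in single members. Of 18 sterol genes Ch25h, which makes 25-hydroxycholesterol, differed by -2.81, higher with Pam3CSK4, and the desaturase Scd2 (2.78-fold) and Mylip, which degrades the LDL receptor (2.39-fold), were higher with MDP. Of 14 oxidative stress genes 3 were at least 2-fold higher with Pam3CSK4, namely the mitochondrial superoxide dismutase Sod2 (4.76-fold), the cystine transporter Slc7a11 (at least 4.63-fold, or -1.55 on the log2 scale averaged over its probe sets) and the metallothionein Mt2 (3.38-fold). The glycolytic regulator Pfkfb3 (3.34-fold) was the 1 of 18 glycolysis and hypoxia genes at 2-fold, and Herpud1 (2.43-fold) and Ppp1r15a (2.35-fold) the 2 of 15 in the unfolded protein list, all with Pam3CSK4. None of 16 respiratory chain and 16 lysosomal genes reached 2-fold. Over all genes 2.41% did so with Pam3CSK4 and 1.42% with MDP. A single member or none in lists of this size is near these shares. Arg1, the arginase of alternatively activated macrophages, stood at 5.67 unstimulated, 7.06 in MDP then MDP, 5.83 in MDP then Pam3CSK4 and 11.13 and 10.90 after Pam3CSK4. It was 2.35-fold higher with MDP than with Pam3CSK4, or 0.90 on the log2 scale with 32 added.

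**Figure D3:**
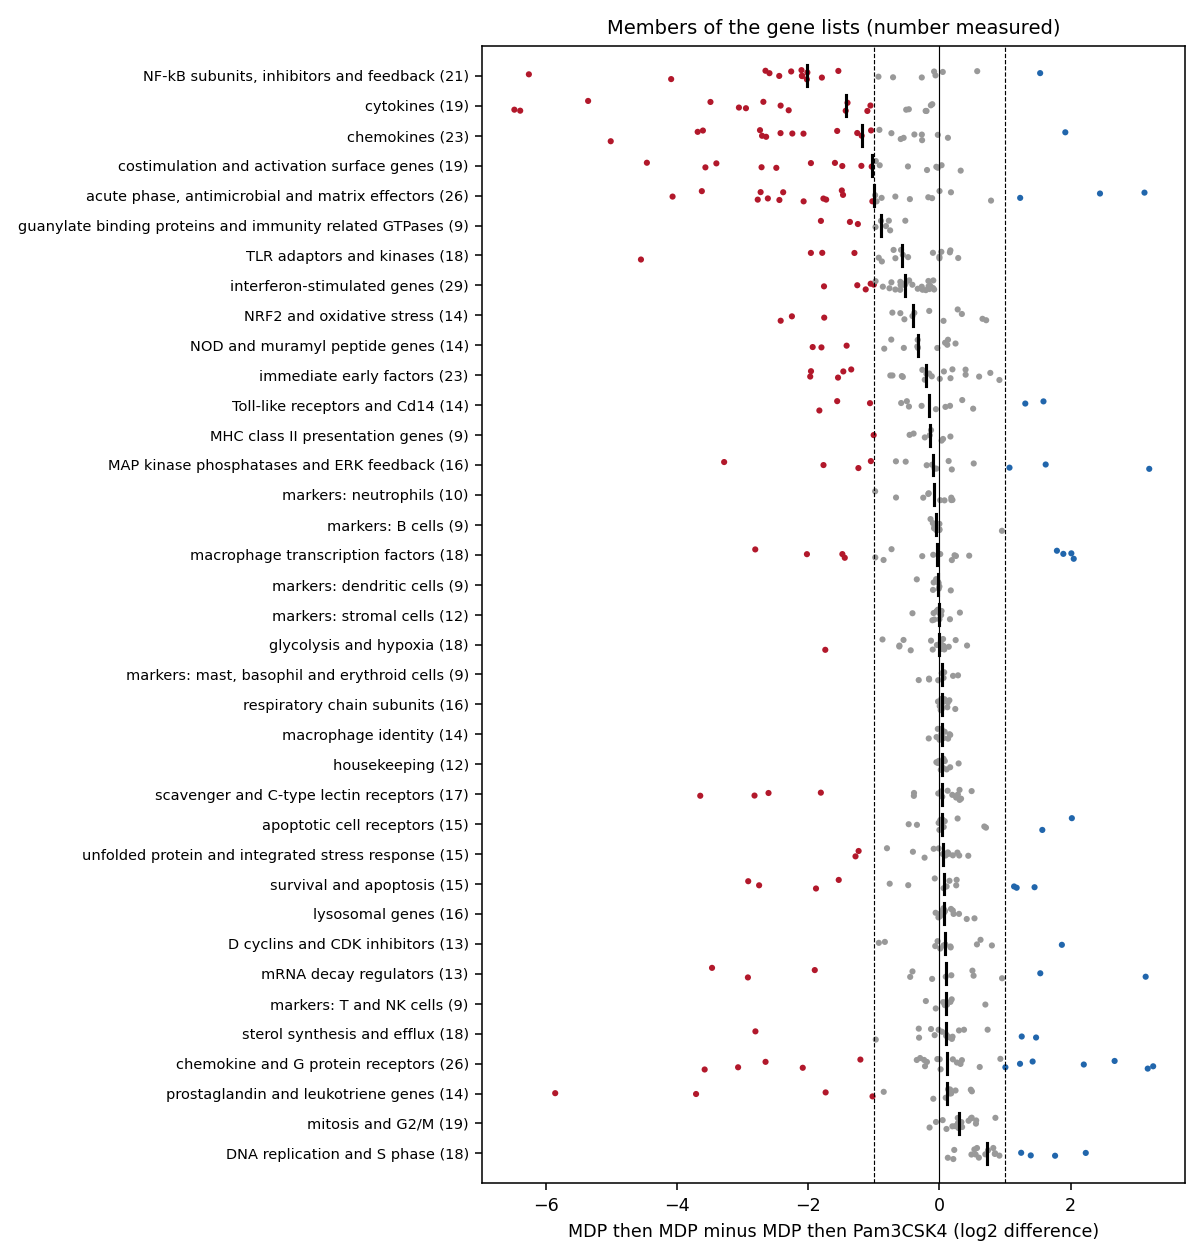
Log2 difference (MDP then MDP minus MDP then Pam3CSK4) of each measured member of the 37 gene lists, 1 point a gene, with the list median as a black bar and dashed lines at 2-fold. Red points are at least 2-fold higher with Pam3CSK4 and blue points with MDP. The NF-kB list has its median at -2.01 and the S phase list at 0.72, while macrophage identity and housekeeping genes gather at 0.04.

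The cultures did not differ by 2-fold in any of 14 macrophage identity genes. Over all genes 3.84% did, and none among so few is near that share. The 14 genes, among them Csf1r, Adgre1 and Cd68, had levels from 10.50 to 14.81 over the 2 arrays and a median difference of 0.04. None of 58 markers of stromal, dendritic, B, T and NK cells, of neutrophils, and of mast, basophil and erythroid cells reached 2-fold, and the 6 list medians lay between -0.08 and 0.10. Having none at 2-fold among so few markers is near the 3.84% of all genes. Single markers ran from -0.98 (neutrophils) to 0.95 (B cells). Above the median on at least 1 array were 8 of 10 neutrophil, 6 of 9 T and NK cell and 6 of 9 B cell markers. For dendritic, stromal, and mast, basophil and erythroid cells they were 4 of 9, 5 of 12 and 3 of 9. The cell composition was not tested. With the arrays centred on housekeeping genes or by cyclic loess, 1 neutrophil marker was at least 2-fold higher with Pam3CSK4. Housekeeping genes had a median of 0.04. The 3′ to 5′ difference of the beta-actin control probe sets was 0.11 with MDP and 0.13 with Pam3CSK4, and the hybridization spikes differed by a median of -0.01. The unstimulated array and the 2 compared arrays had 75th percentiles from 8.12 to 8.15, and the other 4 from 8.05 to 8.07. Whether this reflects separate processing is not stated, its part in comparisons across those sets was not tested, and the 2 compared arrays lie in 1 set.

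Of the 439 genes on the Pam3CSK4 side, 44 had the MDP array under its median and 10 both arrays. At the bound 414 were past 2-fold. Several probe sets above the median were present for 199 of them, with all past 2-fold in 129 and all of the same direction in 195. On the MDP side 21 of 259 genes had the lower array under its median and 2 both, and 247 were past 2-fold at the bound. Of 114 genes with several probe sets there, 49 had all past 2-fold and 106 all of the same direction.

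The same ligands had also been compared in naive cells, on 2 other arrays. There, 255 genes (1.4%) were at least 2-fold higher with Pam3CSK4 and 129 (0.709%) with MDP. After MDP, 238 of the 255 were again at least 2-fold higher with Pam3CSK4, which is 93.3% of the naive set and 54.2% of the set after MDP. On the MDP side 111 genes were shared, 86.0% of the naive set and 42.9% of the set after MDP. No gene was past 2-fold in opposite directions, and 431 of 439 and 258 of 259 had the same sign in both contrasts, against 61.6% of all genes. The genes common to both included Il6, Il1a, Ptgs2, Cxcl1, Dusp6 and Cxcr4, whose levels are given above.

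The contrast was wider after MDP than in naive cells. Over the 255 genes called in naive cells on the Pam3CSK4 side, the median difference was -1.47 there and -2.06 after MDP, and 201 were further apart after MDP. Over the 129 on the MDP side it was 1.24 and 1.55, with 92 further apart. The robust SD of the differences over all genes was 0.163 in naive cells, 0.190 after MDP and 0.111 after Pam3CSK4. Across genes, which are not independent replicates and share arrays and probe design, Pearson's r between the contrast after MDP and the naive one was 0.833 and Spearman's rho 0.538. Over the 9096 genes above the median mean level they were 0.900 and 0.787. Another 201 genes on the Pam3CSK4 side and 148 on the MDP side did not reach 2-fold in naive cells. The difference between the contrasts was not tested, since each rests on single arrays. The 75th percentiles were 8.06 on both naive arrays and 8.14 and 8.12 on the pair after MDP. The contrasts thus come from different sets of arrays, whose part in the wider contrast was not tested.

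**Figure D4:**
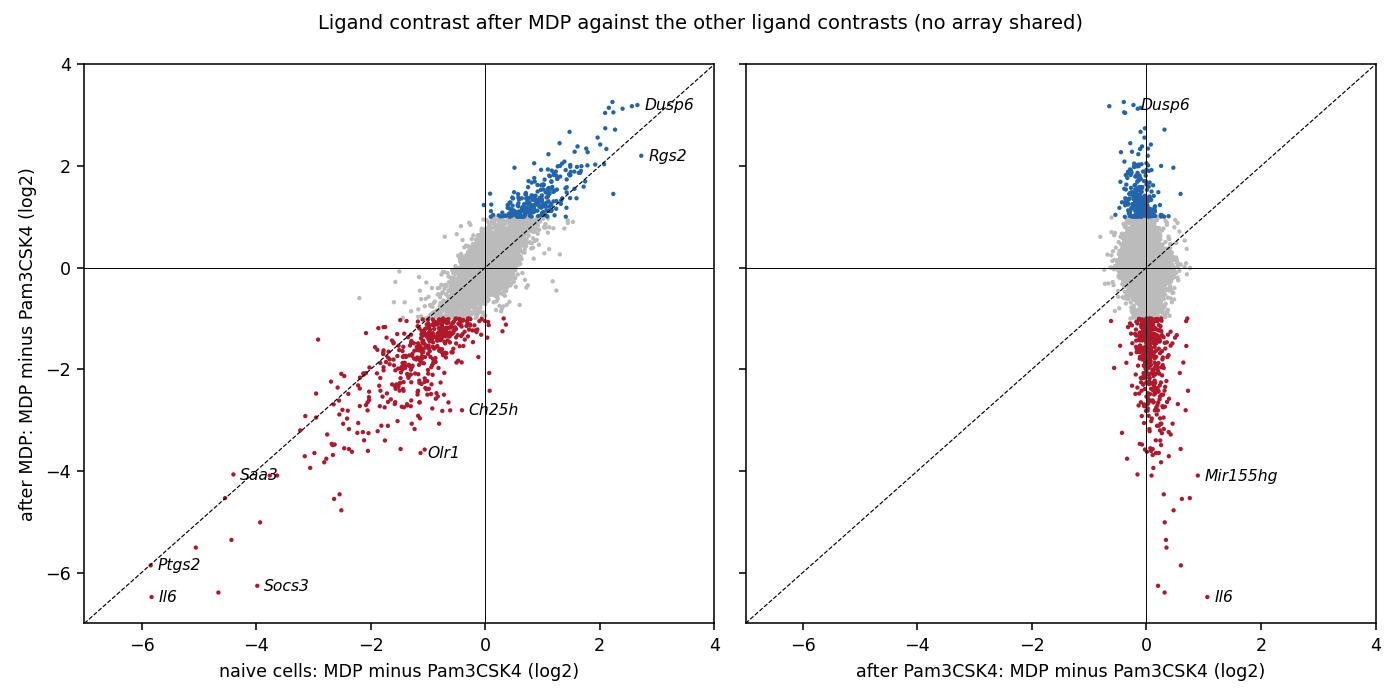
Log2 difference between MDP and Pam3CSK4 after MDP (vertical) against the same difference in naive cells (left, horizontal) and after Pam3CSK4 (right, horizontal) for 18193 genes, with equal differences on the dashed line and colours by the 2-fold calls after MDP. On the left the genes lie along the line, with r of 0.833. On the right the genes stand in a narrow upright band, with Il6 at 1.06 on the horizontal and, by the deposited values, -6.48 on the vertical axis.

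The contrast after MDP minus the naive contrast gives how far a gene moved apart between the settings. Over all 18193 genes it was -1 or lower in 110 and 1 or higher in 19. Of the 439 genes, which were chosen for a large contrast after MDP, 98 were further apart than in naive cells by at least 1 log2 unit and 1 less far apart, and of the 259 genes 10 and 0. A value of -2 or lower was reached by 12 genes that were above the array median on at least 1 of the 4 arrays. The levels with MDP and with Pam3CSK4, in naive cells and after MDP, all enter this choice, so their order in these genes is a description. Gpr84 stood at 8.92 unstimulated, 12.18 and 13.24 in naive cells given MDP and Pam3CSK4, and 9.75 and 13.34 after MDP, so the contrast went from -1.06 to -3.58. Olr1 stood at 6.25, 9.70, 10.83, 6.94 and 10.59 in the same order, and its contrast went from -1.13 to -3.65. In both genes the level with Pam3CSK4 was about equal in naive and pretreated cells, and the level with MDP was lower after pretreatment.

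In some of the 12 genes the level with Pam3CSK4, which entered the choice too, was also higher after MDP than in naive cells. Ch25h stood at 8.85 unstimulated, 9.91 and 10.31 in naive cells given MDP and Pam3CSK4, and 8.72 and 11.53 after MDP, a contrast of -0.41 and then -2.81. Cxcl11, a chemokine for CXCR3-bearing T cells, stood at 6.03, 7.93, 7.85, 6.94 and 9.37 and went from 0.08 to -2.42, or to -1.30 averaged over its probe sets. Cxcl10, its relative, stood at 9.78, 12.70, 12.63, 11.38 and 13.46 and went from 0.07 to -2.07. Ccrl2 stood at 7.03, 9.03, 9.83, 7.998 and 11.07 and went from -0.81 to -3.07, and Cd69 at 6.42, 9.17, 10.65, 7.76 and 11.33 and went from -1.48 to -3.57. Hivep3, Nfkbie, Clec4e, Cdc42ep2 and Socs3 made up the rest, and 7 of the 12 had not reached 2-fold between the ligands in naive cells.

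**Figure D5:**
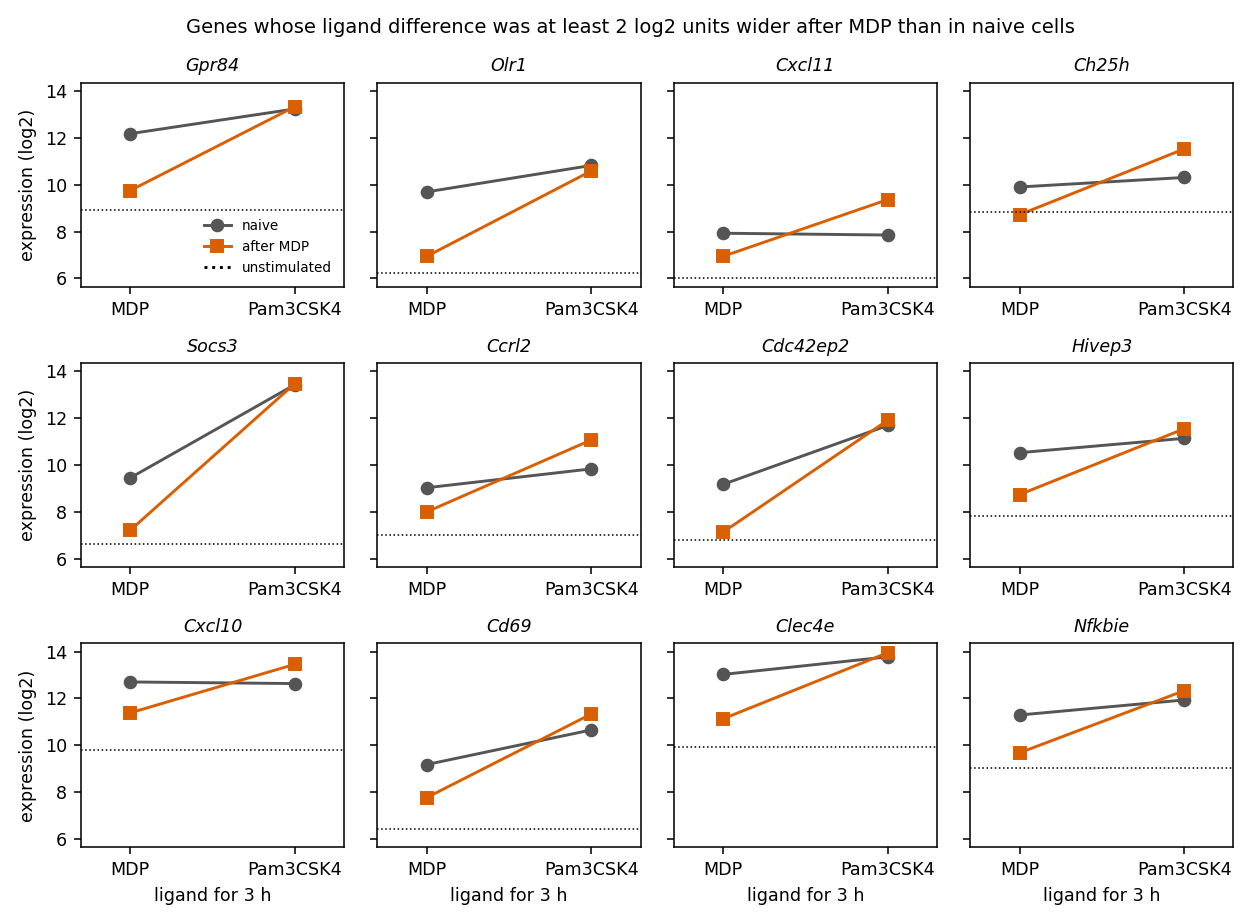
Log2 expression of the 12 genes whose ligand difference was at least 2 log2 units further apart after MDP than in naive cells, in cells given MDP or Pam3CSK4 for 3 h (horizontal). Grey circles are naive cells, orange squares cells pretreated with MDP, and the dotted line the unstimulated level, with 1 array a point. The genes were chosen for this difference, so the gap between the lines describes the choice. Gpr84 with MDP stood at 9.75 after MDP and 12.18 in naive cells.

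In the other direction, the 5 genes furthest from the naive contrast were Cd244a, Selp, Eya4, Hdac9 and Gpr171. Cd244a, an immune receptor, differed by -2.20 in naive cells and by -0.60 after MDP. Hdac9, a histone deacetylase, differed by -1.50 and then by -0.08. Selp, the adhesion molecule P-selectin, differed by -2.92 in the deposited values of naive cells and was at least 2.26-fold higher with Pam3CSK4 after MDP, with 5.24 and 6.66 on the 2 arrays and a difference of -0.66 averaged over its probe sets. Eya4 differed by 0.51 in the deposited values of naive cells and was at least 3.26-fold higher with MDP after MDP, or at 0.58 averaged over its probe sets. Gpr171 differed by -0.71 and then by 0.61.

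After pretreatment with Pam3CSK4 the same pair of ligands gave almost no difference. No gene was at least 2-fold higher with Pam3CSK4 and 1 gene (0.0055%), Il6, with MDP, at 10.18 against 9.12, a difference of 1.06 that is opposite in sign to that after MDP (-6.48 by the deposited values, at least 39.7-fold at the bound). At 1.5-fold there were 14 and 20 genes. None of the 439 and none of the 259 genes was past 2-fold in its own direction there. Across genes, r with the contrast after MDP was -0.183 and rho -0.113, and 42.5% of all genes had the same sign in both contrasts. Of the 439 genes 293 had the opposite sign after Pam3CSK4 and 134 the same. Their median difference there was 0.05, so the opposite signs are of small size.

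Genes that a ligand induced in naive cells, judged on arrays outside the contrast, stood almost entirely on 1 side of it. All 232 genes at least 3-fold higher with Pam3CSK4 than unstimulated in naive cells (1.28% of all genes) were at least 2-fold higher with Pam3CSK4 after MDP, and they make up 52.8% of the 439. The smallest of these differences was -1.12 and the median -2.26. Over unstimulated cells their median was 0.28 in MDP then MDP and 2.54 in MDP then Pam3CSK4, against 0.74 and 2.28 in naive cells given MDP and Pam3CSK4. All 40 genes at least 3-fold higher with MDP in naive cells (0.22%) were also on the Pam3CSK4 side, 9.11% of the 439, with a median difference of -2.81. Their median over unstimulated cells was 0.90 in MDP then MDP and 3.97 in MDP then Pam3CSK4. In naive cells it was 2.23 with MDP and 3.51 with Pam3CSK4, so it was already higher with Pam3CSK4 there. The 40 and the 232 overlap, and Il1a, Il1b and Socs3 are in both. Of the 110 genes at least 3-fold lower with Pam3CSK4 in naive cells (0.605%), 106 (96.4%) were at least 2-fold higher with MDP after MDP, 40.9% of the 259. The gene sets overlap in membership with the lists above, so these counts are not separate evidence for them.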

How the data were processed

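Expression was measured on Affymetrix arrays, with 1 array in each of 7 groups. The deposited values are log2 expression per probe set, which the submitters' processing notes trace to RMA and the affy package. Versions and the set of arrays normalized together are not given in the sources used here. RMA adjusts intensities to a common distribution, so a shift of all genes would not be seen. Values were used without further transformation.

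Each of 18193 genes took the probe set with exactly 1 symbol and the highest mean over the 7 arrays. The platform annotation gave 1 symbol to 34945 of 45101 probe sets, several to 932 and none to 9160, and 64 more were controls. Differences between single arrays were counted at 2-fold, with no p-value. Values under the array median were treated as bounds, but counts, medians of lists and the plots keep the values as deposited. Of 643 genes in 37 lists 582 were measured. The comparison, the lists and the bound rule were chosen with earlier results of these data known. Genes are named by a rule: the 15 largest differences in each direction above the array median, up to 4 members of each list and direction, up to 8 genes opposite to the naive contrast (there were 0), a fixed set of 34 (32 measured), and the 5 largest differences from the naive contrast in each direction. The genes at the threshold, Csf1r, Adgre1 and Cd68 were chosen after their values were seen.

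Alternatives were centring on array medians or housekeeping genes, cyclic loess (limma 3.58.1 in R 4.3.3, span 0.7, 3 iterations), averaging over the probe sets of a gene, dropping probe sets marked as less specific, a floor on the higher array at the median or at the 75th percentile, 32 added on the linear scale, and thresholds of 3-fold and 1.5-fold. Averages over probe sets include those under the median on both compared arrays. Among others this occurred for Icosl, Irf4, Spry2, Lox, Cdt1, Cxcl11, Bcl2, Spred2, Selp, Eya4 and Hivep3. Calculations used Python 3.11.15, numpy 2.4.6, pandas 2.3.3 and matplotlib 3.10.9. Only the 2-fold threshold on a difference was tried on simulated data, with differences planted past it. The bounds, lists and promoter searches were not part of that trial. Promoters were matched to RefSeq by symbol, taking the first listed start of a gene.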

Additional observations from a re-analysis of the deposited data

Results flagged for a closer look

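Il6 was singled out because its ligand contrast differed between the pretreatments, past 2-fold in opposite directions. Opposite signs as such were common, in 293 of the 439 genes and 197 of the 259. After MDP it was at least 39.7-fold higher with Pam3CSK4 (-6.48 by the deposited values, MDP minus Pam3CSK4), at 4.31 with MDP, which is under the array median, and 10.79 with Pam3CSK4, whereas after Pam3CSK4 it differed by 1.06, at 10.18 with MDP and 9.12 with Pam3CSK4. Each value comes from a single array, and the difference between the contrasts was not tested.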

How the results depend on the processing

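With the 8 alternatives that kept the 2-fold threshold, the genes higher with Pam3CSK4 numbered 354 to 483 against 439, those higher with MDP 176 to 268 against 259, and those shared with the naive contrast in direction 273 to 361 against 349. At 3-fold these counts were 237, 70 and 119, and at 1.5-fold 815, 801 and 822. The genes shared in direction with the contrast after Pam3CSK4 numbered 0 in all these settings and 2 at 1.5-fold. The Pam3CSK4 share of calls was 62.9%, from 61.7% to 68.7% at 2-fold, 77.2% at 3-fold and 50.4% at 1.5-fold. Of 138 named genes, 119 stayed on their side of 2-fold under the 6 alternatives run for single genes and 19 crossed it, 1 of them (Nfkbia) from below. None of the 138 changed sign past the threshold. No paired analysis was possible because the groups share only replicate number 2 and each has 1 array. Leaving out a replicate was likewise not possible. Signal limits the low genes, since on the Pam3CSK4 side 44 genes had the lower array under its median and 10 both arrays, and on the MDP side 21 and 2.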

Other observations

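Probe sets without a gene symbol of their own, or with several, were at 2-fold less often than genes. Of 10092 such probe sets 70 were at least 2-fold higher with Pam3CSK4 and 32 with MDP, 1.01% together. Over all genes, each taken by its probe set of highest mean, the share was 3.84%. The deposited values were identical on both compared arrays for 860 genes, and over the 21 pairs of arrays such ties occurred in 758 to 1090 genes.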
